A study of Mus musculus with 7 samples.

Results

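The genes described here belong to the hepatic urea cycle and the paired handling of ammonia and glutamine. They were chosen by symbol from textbook roles, with Nags, Cps1, Otc, Ass1 and Asl for the enzymes of the cycle, Slc25a15 and Slc25a13 for its mitochondrial carriers, and Gls2 and Glul for glutamine breakdown and synthesis. Earlier results of these data were known when the choice was made. The choice gave 10 of the 56691 genes of the count table, and all 10 were among the 13683 genes left after removing genes with too few counts. Of these, 9 are described. The samples were whole livers of male C57BL/6J mice, bought at 8 weeks of age and acclimatised for 2 weeks. Lipopolysaccharide (LPS), a bacterial cell wall component that induces septic liver injury, had been injected intraperitoneally at 10 mg/kg in 3 mice, whose livers were taken after 24 h. The other group held 4 control mice, and the labels do not say what the controls received. RNA sequencing covered 4 and 3 of the 6 mice kept per group, and mice given sulforaphane were not analysed here. The question was how transcripts of the cycle and its carriers compared between control and LPS treated mice, set against periportal glutaminase and pericentral glutamine synthetase.

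The urea cycle turns toxic ammonia and aspartate nitrogen into urea and runs mainly in periportal hepatocytes, with its first steps in mitochondria and the rest in the cytosol. Periportal glutaminase, encoded by Gls2, releases ammonia from glutamine next to the cycle. Ammonia that escapes is captured downstream by glutamine synthetase, encoded by Glul, which in liver is restricted to a narrow layer of hepatocytes around the central vein.

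Total counts were 14991022, 15096573, 15721944 and 18584140 in control mice 1 to 4 and 20500391, 17095607 and 17821331 in LPS mice 1 to 3. Each of the 9 genes had at least 466 and at most 49030 counts in a sample, so none was near the counting limit. Mitochondrially encoded transcripts took 23.7%, 14.6%, 7.48% and 8.96% of the counts in control mice 1 to 4 and 6.45%, 3.83% and 3.94% in LPS mice 1 to 3. This share was higher in every control mouse than in any LPS mouse, and its part in the results was not tested. LPS mice 2 and 3 were closer to each other than were other mice sharing a group, with an SD of the log2 ratio between them of 0.10 over 1729 well covered genes, against 0.29 to 0.58 in the other pairs. The labels do not tie these samples to animals, so whether LPS mice 2 and 3 were separate animals cannot be told, and n = 3, its SDs and the p-values hold only if they were. Where summing their counts into 1 sample ended the call of a gene whose adjusted p is given, the new value stands with the gene, and list counts under the alternatives were added after the data were seen. As a check of the labels, the acute phase gene Lbp stood at 28.1, 50.9, 62.6 and 43.9 CPM (counts scaled to one common library size) in control mice and at 219, 360 and 360 CPM in LPS mice.

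Of the 9 genes, 3 were higher in LPS treated mice (Nags, Asl and Slc25a15), 2 were lower (Otc and Glul) and 4 did not pass the test (Cps1, Ass1, Slc25a13 and Gls2). Calls were made at an adjusted p below 0.05. Among all 13683 genes tested, 13.3% were called higher, 13.0% lower and 26.3% in either direction. The 9 genes were chosen with earlier results of these data known, so the shares over all genes are given beside them and test nothing. The CPM ranges of the groups did not overlap for 6 of the 9 genes, against 35.4% of all genes, with LPS mice above control mice for 4 and below for 2. The median log2 fold change of the 9 genes was 0.34, and that of all genes tested was -0.01. The called genes numbered 1824 higher and 1773 lower, and the lower count was 1146 without LPS mouse 2 and 1159 without LPS mouse 3. With total counts in place of the scaling factors, the median of all genes shifted by -0.12 on the log2 scale and the calls were 1350 higher and 2055 lower, so that 39.6% of calls were higher instead of 50.7%. In whole liver RNA, fewer cells of a type and less RNA per cell cannot be told apart. The p-values measure the spread between these samples only.

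**Figure D1:**
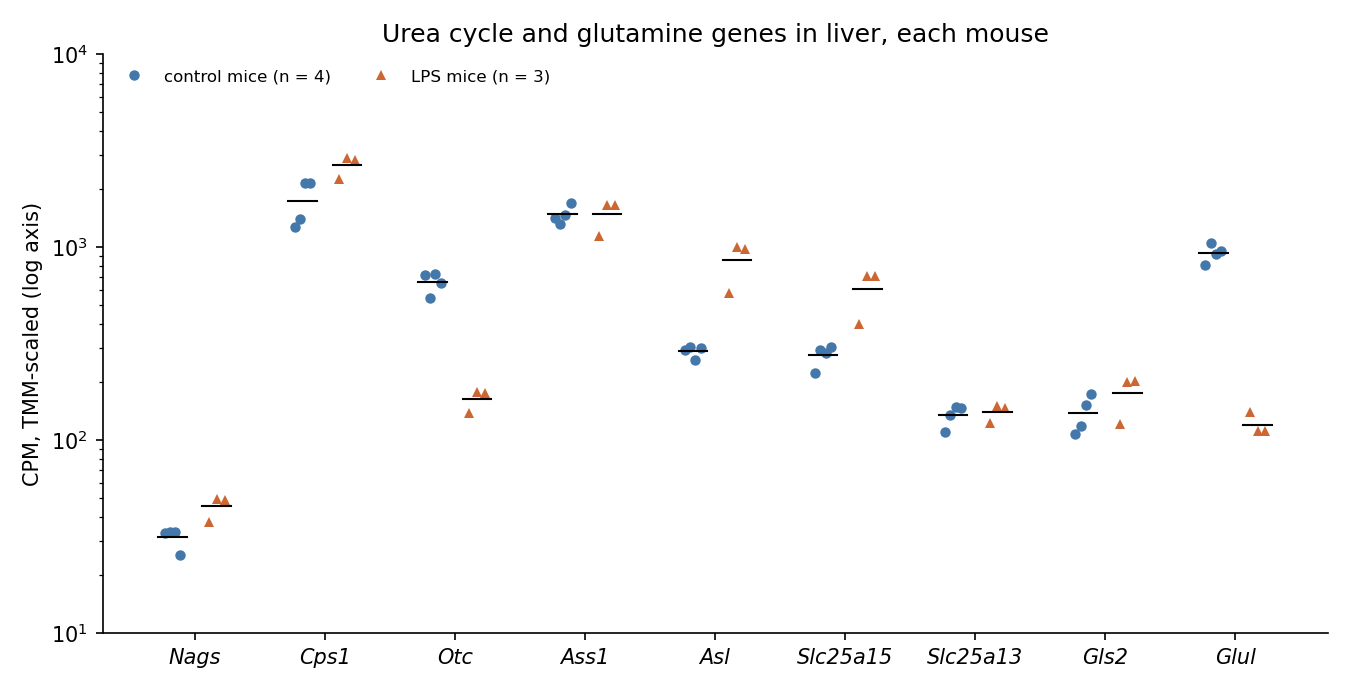
CPM on a log axis for the 9 genes in each of the 4 control mice (circles) and 3 LPS treated mice (triangles), with a bar at each group mean. Otc and Glul lay lower in all 3 LPS mice than in any control mouse, Asl and Slc25a15 lay higher, Nags and Cps1 higher by smaller margins, and the groups overlapped for Ass1, Slc25a13 and Gls2.

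Nags (ENSMUSG00000048217) makes N-acetylglutamate, the obligatory activator of the first enzyme of the cycle. Its level was 32.9, 33.5, 33.3 and 25.3 CPM in control mice 1 to 4 and 37.4, 49.4 and 48.9 CPM in LPS mice 1 to 3. Every LPS mouse lay above every control mouse, with control mouse 4 apart from the other controls. The mean was 31.3 ± 3.96 CPM (SD, n = 4) in control mice and 45.2 ± 6.77 CPM (SD, n = 3) in LPS mice, a 1.45-fold rise with a log2 fold change of 0.53 (SE 0.16, 95% interval 0.19 to 0.88, adjusted p = 0.0252). This was the least secure of the 5 calls. The adjusted p was 0.0689 without control mouse 4, 0.119 without LPS mouse 2, 0.113 without LPS mouse 3, 0.108 with LPS mice 2 and 3 summed and 0.0750 with total counts, and it ranged from 0.0143 to 0.119 over the 18 alternatives.

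Cps1 (ENSMUSG00000025991), carbamoyl phosphate synthetase, catalyses the rate-limiting entry of ammonia into the cycle. Control mice 1 to 4 had 1276, 1399, 2135 and 2140 CPM, and LPS mice 1 to 3 had 2257, 2890 and 2840 CPM. The groups did not overlap, but LPS mouse 1 was close to control mice 3 and 4, and the controls themselves were spread widely. The means were 1738 ± 465 CPM (SD, n = 4) and 2662 ± 352 CPM (SD, n = 3), with a log2 fold change of 0.62 (SE 0.22, 95% interval 0.15 to 1.08) and an adjusted p of 0.0527, just outside the threshold. Cps1 passed it in 7 of the 18 alternatives, among them DESeq2 (adjusted p = 0.0148) and edgeR without control mouse 3 (0.0295), control mouse 4 (0.04) or LPS mouse 1 (0.0395). It did not pass in the other 11. Among these were the fits with LPS mice 2 and 3 summed (0.169), without LPS mouse 2 (0.176) and without LPS mouse 3 (0.17). The same held without control mouse 1 (0.104), without control mouse 2 (0.138) and with total counts (0.142). Over the 18 alternatives its adjusted p lay between 0.0112 and 0.176, and its log2 fold change between 0.47 and 0.76.

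Otc (ENSMUSG00000031173), ornithine transcarbamylase, joins carbamoyl phosphate to ornithine inside the mitochondrion, directly after Cps1. It stood at 712, 541, 728 and 653 CPM in control mice 1 to 4 and at 138, 177 and 175 CPM in LPS mice 1 to 3. All 3 LPS mice were far below the lowest control mouse. Controls averaged 659 ± 84.8 CPM (SD, n = 4) and LPS mice 163 ± 21.9 CPM (SD, n = 3), which was 4.03-fold lower (log2 fold change -2.01, SE 0.17, adjusted p = 2.86e-06). At these neighbouring steps, the Otc transcript was lower in LPS mice and no fall was seen for Cps1. The ratio of Cps1 to Otc counts within a mouse was 1.79, 2.59, 2.93 and 3.28 in control mice and 16.3, 16.4 and 16.2 in LPS mice. Such a ratio does not depend on the scaling between libraries.

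Ass1 (ENSMUSG00000076441), argininosuccinate synthetase, brings in the other nitrogen by joining citrulline to aspartate in the cytosol. Its values were 1421, 1317, 1464 and 1697 CPM in control mice 1 to 4 and 1137, 1648 and 1640 CPM in LPS mice 1 to 3. LPS mouse 1 was the lowest of the 7 mice, and LPS mice 2 and 3 lay inside the control range. The group means were 1475 ± 161 CPM (SD, n = 4) and 1475 ± 292 CPM (SD, n = 3). The interval of the fold ran from 0.764 to 1.31 (adjusted p = 0.999), so a change beyond those bounds lay outside the 95% interval, while smaller changes in either direction could not be resolved.

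Asl (ENSMUSG00000025533), argininosuccinate lyase, splits the product of Ass1 into arginine and fumarate. Control mice 1 to 4 had 293, 305, 260 and 299 CPM, and LPS mice 1 to 3 had 580, 998 and 975 CPM. The controls were tightly grouped and every LPS mouse was higher, LPS mouse 1 by the smallest margin. Controls averaged 289 ± 20.3 CPM (SD, n = 4) and LPS mice 851 ± 235 CPM (SD, n = 3), a rise of 2.94-fold (log2 fold change 1.56, SE 0.19, adjusted p = 6.25e-05). With Asl higher and no change called for Ass1, the ratio of Ass1 to Asl counts moved from 4.84, 4.32, 5.64 and 5.68 in control mice to 1.96, 1.65 and 1.68 in LPS mice.

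Slc25a15 (ENSMUSG00000031482) carries ornithine into the mitochondrion in exchange for citrulline. It had 221, 293, 283 and 304 CPM in control mice 1 to 4 and 397, 709 and 711 CPM in LPS mice 1 to 3. The groups were separate, and LPS mouse 1 again lay between the controls and the other LPS mice. Means of 275 ± 37.1 CPM (SD, n = 4) in control mice and 606 ± 181 CPM (SD, n = 3) in LPS mice gave a 2.199-fold rise (log2 fold change 1.14, SE 0.21, adjusted p = 0.00135). The related carrier gene Slc25a2 had 3 counts or fewer in every sample, so no ratio between these carriers was formed.

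Slc25a13 (ENSMUSG00000015112) encodes citrin, which exports mitochondrial aspartate for the Ass1 step. Its values were 109, 134, 149 and 146 CPM in control mice 1 to 4 and 122, 150 and 147 CPM in LPS mice 1 to 3. The groups overlapped almost fully. The means were 134 ± 17.9 CPM (SD, n = 4) and 140 ± 15.3 CPM (SD, n = 3), and the interval of the fold ran from 0.826 to 1.31 (adjusted p = 0.830). Slc25a12, which encodes the other aspartate and glutamate carrier, rose 2.29-fold (log2 fold change 1.196, SE 0.19, adjusted p = 4.44e-04) from a lower level. The ratio of Slc25a13 to Slc25a12 counts was 13.8, 14.8, 18.4 and 13.9 in control mice and 7.61, 6.64 and 6.49 in LPS mice, so Slc25a13 still had more counts in every mouse.

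Gls2 (ENSMUSG00000044005), the liver-type glutaminase of periportal hepatocytes, had 108, 119, 152 and 173 CPM in control mice 1 to 4 and 121, 200 and 203 CPM in LPS mice 1 to 3. LPS mouse 1 fell within the control range, and LPS mice 2 and 3 lay above it. The means were 138 ± 30.2 CPM (SD, n = 4) and 175 ± 46.5 CPM (SD, n = 3), with a log2 fold change of 0.34 (SE 0.21, 95% interval -0.12 to 0.80, adjusted p = 0.268).

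Glul (ENSMUSG00000026473) showed the largest change of the 9 genes. It had 807, 1046, 915 and 955 CPM in control mice 1 to 4 and 139, 111 and 111 CPM in LPS mice 1 to 3. The highest LPS mouse was far below the lowest control mouse. Means were 931 ± 99.0 CPM (SD, n = 4) in control mice and 120 ± 16.3 CPM (SD, n = 3) in LPS mice, 7.74-fold lower in the latter (log2 fold change -2.95, SE 0.17, adjusted p = 1.27e-07). Over the 18 alternatives the log2 fold change stayed between -3.07 and -2.89. Set against glutaminase, the ratio of Glul to Gls2 counts within a mouse was 7.50, 8.81, 6.02 and 5.51 in control mice and 1.15, 0.553 and 0.546 in LPS mice. Counts of the synthetase exceeded those of the glutaminase in every control mouse and in LPS mouse 1, and were fewer in LPS mice 2 and 3.

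Levels were compared between genes as CPM per kilobase of exon. The length was that of all annotated exons of a gene merged, such as 5555 bases for Cps1, 4241 for Otc and 4831 for Asl. It can exceed the length of the transcript expressed in liver. The order and ranks below depend on this choice, and other lengths were not tried. In control mice the order of mean levels was Ass1 (611), Cps1 (313), Glul (280), Otc (155), Asl (59.9), Slc25a15 (48.9), Gls2 (39.7), Slc25a13 (35.4) and Nags (11.01). Neighbours in this order were separated beyond the range over mice only between Ass1 and Cps1, Glul and Otc, Otc and Asl, and Slc25a13 and Nags. In LPS mice the order was Ass1 (611), Cps1 (479), Asl (176), Slc25a15 (108), Gls2 (50.3), Otc (38.5), Slc25a13 (36.8), Glul (36.2) and Nags (15.9). Here the separated neighbours were Cps1 and Asl, Slc25a15 and Gls2, and Glul and Nags. Among these 9 genes, Glul moved from rank 3 to rank 8 and Otc from rank 4 to rank 6, while Asl moved from rank 5 to rank 3. Together they took 0.470%, 0.545%, 0.638% and 0.712% of the counts in control mice 1 to 4 and 0.522%, 0.630% and 0.618% in LPS mice 1 to 3, so the groups overlapped in this share.

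Around the cycle, 67 genes in 4 lists were examined, of which 59 were tested, 16 were higher and 15 lower, with a median log2 fold change of 0.03. With LPS mice 2 and 3 summed, 13 were higher and 12 lower. In the list for nitrogen supply and recycling, 4 of 14 tested genes were higher and 4 lower (median 0.04). This list also held genes that use aspartate or glutamine without feeding the cycle, such as Asns. Got1, the cytosolic aspartate aminotransferase, rose (log2 fold change 2.23, adjusted p = 1.57e-05), as did Asns, which makes asparagine from aspartate with glutamine as nitrogen donor (3.27, adjusted p = 3.05e-06), and Gpt2, a mitochondrial alanine aminotransferase (1.04, adjusted p = 1.31e-04). The mitochondrial carbonic anhydrases, which supply bicarbonate to Cps1, fell, with log2 fold changes of -1.89 for Car5a (adjusted p = 2.24e-04) and -2.27 for Car5b (adjusted p = 9.08e-04). Sirt3, a mitochondrial deacetylase, also fell (-0.64, adjusted p = 0.00527). Glud1, glutamate dehydrogenase, had 1079 ± 214 CPM (SD, n = 4) in control mice and 991 ± 48.3 CPM (SD, n = 3) in LPS mice and was not called (adjusted p = 0.660).

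Of the 13 tested genes reported from the list for arginine and ornithine use, 0 were higher and 5 were lower by edgeR (median -0.33), with 0 higher and 5 lower at an unadjusted p below 0.05 and 1 higher (Nos2) and 5 lower by DESeq2, which also tested genes with fewer counts. Gamt, which completes creatine synthesis, fell by 4.65 on the log2 scale (adjusted p = 5.38e-07), Ddah1, which breaks down methylarginines, by a log2 fold change of -2.11 (adjusted p = 1.75e-06), and Prodh2, a hydroxyproline dehydrogenase, by -1.77 (adjusted p = 1.93e-04). Nos2, which makes nitric oxide from arginine, had 0, 0, 2 and 1 counts in control mice and 11, 18 and 6 in LPS mice. These counts were too few for the edgeR test. Summed over mice and divided by library size they were 14.7-fold higher in LPS mice (95% interval 4.63 to 74.6, which covers counting error only), and 10.1 to 17.4-fold higher when each LPS mouse was left out, values added after the data were seen. With 3 counts set in each control library, the LPS mean was at least 3.73-fold higher. That bound was 2.41 to 4.57-fold when each LPS mouse was left out. Oat, which diverts ornithine from the cycle, had 398 ± 32.7 CPM (SD, n = 4) in control mice and 330 ± 50.6 CPM (SD, n = 3) in LPS mice (adjusted p = 0.223).

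Among amino acid and ammonia carriers, 6 of 17 tested genes were higher and 3 lower (median 0.17). Slc7a2, a cationic amino acid transporter that takes up arginine, rose 2.51-fold (adjusted p = 9.08e-04), and Slc6a12, a betaine transporter, rose 1.51-fold (adjusted p = 0.00402). The genes that fell were Aqp8, a water channel that also conducts ammonia (log2 fold change -3.88, adjusted p = 4.34e-08), Slc1a2, a glutamate transporter (-0.79, adjusted p = 0.00700), and Rhbg, an ammonium transporter (-1.97, adjusted p = 0.0204). The adjusted p of Slc1a2 was 0.0522 without LPS mouse 2, and that of Rhbg was 0.0755 without control mouse 2 and 0.0728 without LPS mouse 3. The glutamine transporter Slc38a3 had 422 ± 25.8 CPM (SD, n = 4) and 406 ± 76.0 CPM (SD, n = 3) in control and LPS mice, and Slc38a4 had 739 ± 59.7 and 628 ± 68.7 CPM; neither was called (adjusted p = 0.835 and 0.283). Rhcg, Slc14a1, Slc14a2, Slc25a2 and Slc38a5 had 3 counts or fewer in every sample.

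The list of transcriptional regulators of these genes also held Gcgr, a hormone receptor and not a transcription factor. Of the 15 genes in this list, 6 were higher and 3 lower (median 0.24), with Gcgr among the lower. The counts were 4 and 1 with LPS mice 2 and 3 summed, 5 and 1 without LPS mouse 2, and 4 and 1 without LPS mouse 3. Ppargc1a, a coactivator of the fasting response, rose 4.24-fold (adjusted p = 1.68e-04), Foxa3 rose 1.85-fold (adjusted p = 0.00285) and Foxo1 rose 1.98-fold (adjusted p = 0.00286). Hnf4a, a factor that maintains hepatocyte gene expression, was 1.67-fold higher (adjusted p = 0.00961), with an adjusted p of 0.0581 without LPS mouse 2, 0.0506 without LPS mouse 3 and 0.0533 with these mice summed. Gcgr, the glucagon receptor, fell (log2 fold change -1.13, adjusted p = 4.74e-04). Cebpa, which drives urea cycle genes in hepatocytes, was lower by a log2 fold change of -0.53 (adjusted p = 0.0127), and its adjusted p was 0.0545 without LPS mouse 2, 0.0553 without LPS mouse 3 and 0.0573 with these mice summed. Foxa1 was also lower (log2 fold change -1.202, adjusted p = 0.0440), but control mouse 3 had 48.2 CPM, the other controls 16.0, 13.2 and 13.8 CPM and the LPS mice 9.16, 10.2 and 10.3 CPM. Without control mouse 3 its log2 fold change was -0.54 and it was still called. Foxa1 lost the call without any 1 of the LPS mice, with adjusted p of 0.112, 0.111 and 0.111, with LPS mice 2 and 3 summed (0.113) and with DESeq2 (0.106).

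**Figure D2:**
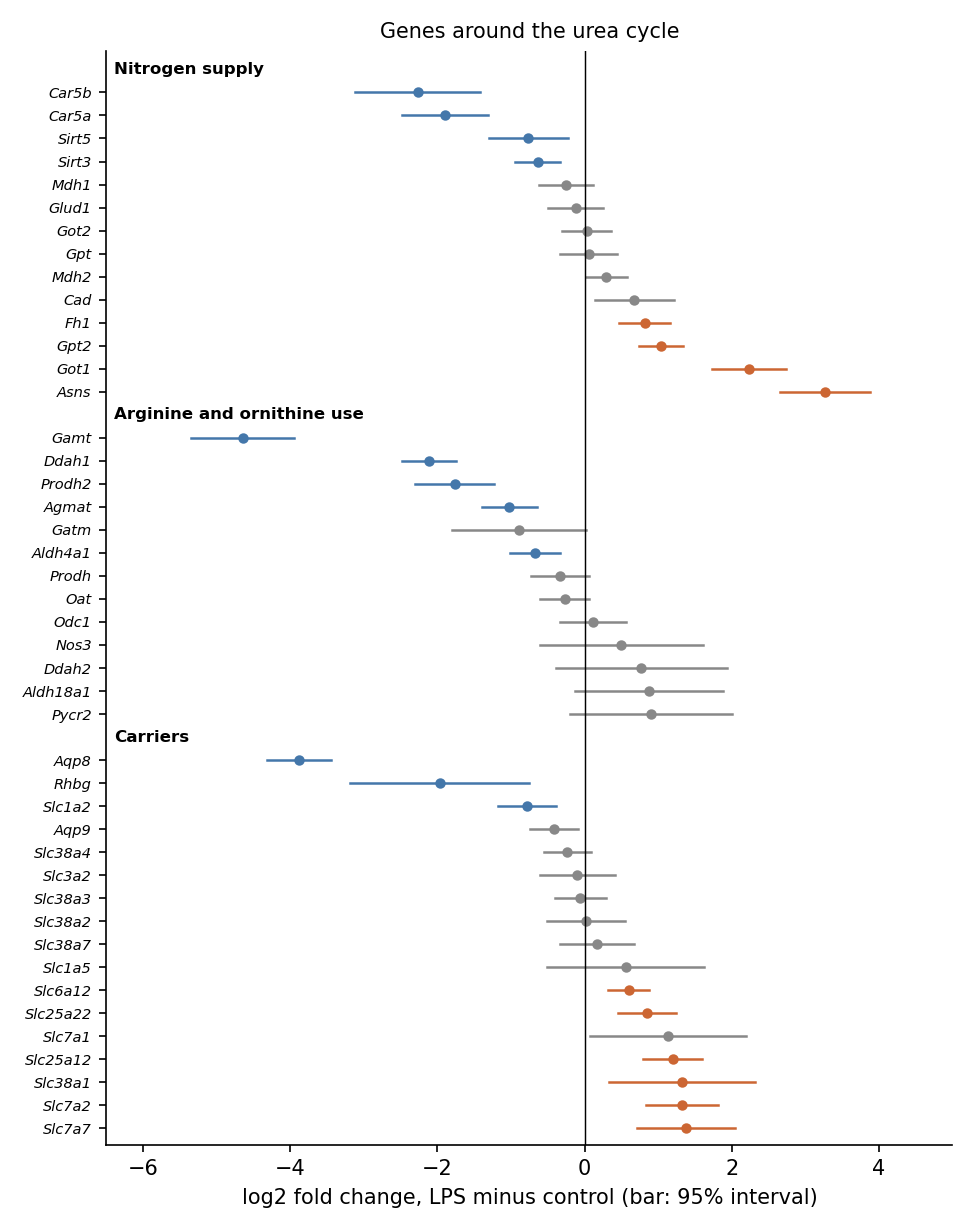
Log2 fold change of LPS minus control for tested genes of the lists for nitrogen supply and recycling, arginine and ornithine use, and carriers. Bars give the 95% interval, with n = 4 control and 3 LPS mice. Orange points were called higher, blue points lower and grey points neither. The carriers and the nitrogen supply and recycling genes held points of all 3 kinds.

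Glul was set beside other genes with a known position along the liver lobule. Of 19 pericentral genes tested, 12 were lower and 0 higher (10 to 14 lower when each mouse was left out, 11 with LPS mice 2 and 3 summed), and the median log2 fold change was -1.35. The smallest p-values belonged to Rgn (log2 fold change -3.38, adjusted p = 3.87e-08), Cyp1a2 (-5.27, adjusted p = 1.42e-07) and Gulo (-1.37, adjusted p = 1.84e-05). Oat, Slc1a2 and Rhbg belong to this list and to those above. All 19 log2 fold changes were negative, including those not called, such as Cyp2e1, the most abundant gene of the list, at 4741, 7925, 7701 and 6292 CPM in control mice and 5497, 5725 and 5816 CPM in LPS mice. Of 14 periportal genes tested, 5 were higher and 5 lower, with a median log2 fold change of -0.05. Sds (1.74, adjusted p = 1.43e-04), Aldh1b1 (1.32, adjusted p = 0.00130) and Pck1 (1.12, adjusted p = 0.00401) rose, and Hsd17b6 (-3.21, adjusted p = 9.98e-06), G6pc (-2.44, adjusted p = 9.08e-05) and Etnppl (-1.82, adjusted p = 5.46e-04) fell. The periportal genes thus went both ways, as did the periportal urea cycle genes.

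**Figure D3:**
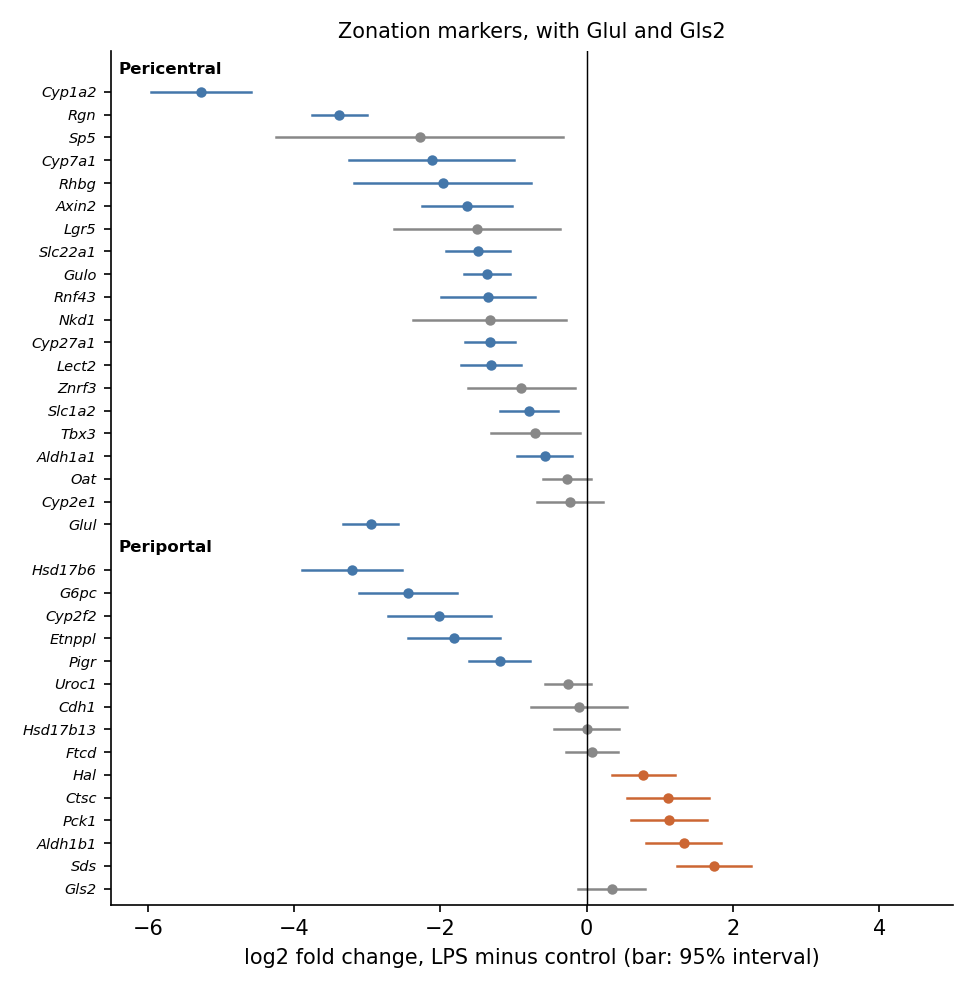
Log2 fold change of LPS minus control, with 95% intervals, for 19 pericentral genes with Glul and 14 periportal genes with Gls2, n = 4 control and 3 LPS mice. Blue points were called lower, orange points higher and grey points neither, and all points of the pericentral group lay left of 0.

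Markers of the cell types in the liver are given beside these results, and their part in the results was not tested. Of 15 hepatocyte markers, 4 were higher and 5 lower (median log2 fold change -0.09). Their sum, with Alb highest in the mean over all mice, was 84840, 89940, 119400 and 103400 CPM in control mice and 77310, 89630 and 90000 CPM in LPS mice. The called hepatocyte markers were 3 higher and 2 lower with LPS mice 2 and 3 summed or without either, and 3 lower without LPS mouse 1. Of 15 macrophage markers 7 were higher and 2 lower (median 0.53), and their sum was 211, 295, 263 and 187 CPM in control mice and 844, 253 and 257 CPM in LPS mice. Marco, with the highest mean over all mice, led this sum only in LPS mouse 1, at 409 CPM. It had 66.4 and 65.5 CPM in LPS mice 2 and 3, where Lyz2 led with 69.2 and 74.1 CPM. Clec4f led in every control mouse, with a control mean of 54.4 CPM against 3.68 CPM for Marco. Without LPS mouse 1, 5 macrophage markers were higher and 5 lower. All 9 neutrophil markers tested of 12 were higher, with a fitted median of 6.31 that is not exact, since Ltf, Mmp8, Ngp and Retnlg did not exceed 3 counts in any control. Genes with so few control counts were tested only because of their counts in LPS mice, so the 9 higher do not measure how general the rise was. The median was 5.39 with Ltf, Mmp8, Ngp and Retnlg at 3 counts in each control library. With at least 10 counts required in every sample only S100a9 and Csf3r were tested, both higher. Camp, Ly6g and Elane had too few counts for the test. Camp had 1, 0, 2 and 0 counts in control mice and 7, 1 and 3 in LPS mice. Ly6g had 0 in each control mouse and 7, 0 and 1 in LPS mice. Elane had 0, 8, 6 and 0 in control mice and 3, 2 and 6 in LPS mice. The neutrophil sum was 5.23, 4.602, 2.32 and 3.53 CPM in control mice, led by Csf3r, and 224, 166 and 163 CPM in LPS mice, led by S100a9. The neutrophil sum therefore moved with the groups. The hepatocyte sums overlapped, but Alb did not, with 37916, 37733, 61619 and 50434 CPM in control mice and 24614, 24631 and 24665 CPM in LPS mice (log2 fold change -0.93, adjusted p = 0.0137). The adjusted p of Alb was 0.0653 with LPS mice 2 and 3 summed, 0.0618 without LPS mouse 2 and 0.0642 without LPS mouse 3. Trf, named after its values were seen, was higher, with 12428 ± 2785 CPM (SD, n = 4) in control mice and 25294 ± 3824 CPM (SD, n = 3) in LPS mice (adjusted p = 0.00597). Trf lay above Alb in LPS mice 2 and 3, at 27305 and 27692 CPM, and below it in the other mice.

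Of 9 endothelial markers 2 were higher and 2 lower (median -0.20), with sums of 153, 184, 113 and 150 CPM in control mice and 192, 113 and 102 CPM in LPS mice. Eng had the highest mean over all mice but did not lead in every mouse. In LPS mice its mean was 18.6 CPM, below 26.3 CPM for Pecam1. Of 8 stellate cell markers 1 was higher and 2 lower (median -0.13), led by Dcn, with sums of 472, 324, 208 and 331 CPM and of 341, 275 and 265 CPM. Of 5 cholangiocyte markers 1 was higher and 0 lower (median -0.34), led by Spp1, with sums of 262, 108, 72.1 and 116 CPM and of 137, 164 and 158 CPM. These sums overlapped between the groups, and leaving out each mouse in turn gave 1 to 3 lower endothelial and 1 or 2 lower stellate markers. Without control mouse 1, 2 stellate and 2 cholangiocyte markers were higher. Lymphocyte markers, with 3 of 6 tested, had 0 higher and 0 lower by edgeR and by DESeq2, 0 and 2 at an unadjusted p below 0.05 (median -1.99), and summed to 3.75, 4.16, 3.36 and 2.71 CPM in control mice and 2.95, 1.54 and 3.23 CPM in LPS mice. Of 5 erythroid markers 0 were higher and 4 lower (median -1.41), with sums of 307, 183, 232 and 179 CPM in control mice and 136, 53.8 and 53.7 CPM in LPS mice. Hbb-bs had the highest mean over all mice, but Alas2 lay above it in control mice 3 and 4 and in LPS mice 2 and 3. DESeq2 called 2 of the erythroid markers lower, and edgeR called 1 with LPS mice 2 and 3 summed or without either, and 2 without control mouse 1, 2 or 3.

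The RefSeq promoter table (build GRCm38.p6) held 6 of the 9 genes, namely Ass1, Glul, Nags, Otc, Slc25a13 and Slc25a15, and not Cps1, Asl or Gls2. The 250 bases before the transcription start are printed for Glul and Otc because these were the 2 of the 9 genes that fell. The Glul window lies at chr1:153899679-153899928 and the Otc window at chrX:10252055-10252304, both on the plus strand, and capitals mark the CCAAT letters.
Glul: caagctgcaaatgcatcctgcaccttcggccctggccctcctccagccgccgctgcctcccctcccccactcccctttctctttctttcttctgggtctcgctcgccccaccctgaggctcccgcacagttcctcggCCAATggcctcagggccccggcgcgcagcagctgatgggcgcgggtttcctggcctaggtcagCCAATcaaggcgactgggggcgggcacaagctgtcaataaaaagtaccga
Otc: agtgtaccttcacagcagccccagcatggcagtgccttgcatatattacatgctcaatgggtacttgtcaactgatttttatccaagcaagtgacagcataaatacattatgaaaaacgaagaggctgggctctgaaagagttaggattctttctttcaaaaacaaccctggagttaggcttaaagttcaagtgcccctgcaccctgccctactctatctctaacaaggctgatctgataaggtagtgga
The windows differed in composition, with 64.8% G or C and 15 CpG for Glul and 43.6% and 1 CpG for Otc, against a median of 52.4% over all 32851 promoters. On either strand, 6 patterns were searched, and TATAAA was in 12.4% of all promoters, CCAAT in 33.8%, TTCNNNGAA (STAT) in 7.02%, TTGCNNAA (C/EBP) in 9.56% and CTTTGA (TCF/LEF) in 13.8%. The pattern for NF-kappa B was GGG, any 5 bases and CC, a loose one found in 45.8% of promoters. Glul held CCAAT at positions -113 and -50 from the start and none of the other patterns, and Otc held none of the 6. A match describes letters in this window and not a bound site.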

How the data were processed

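Livers of 4 control and 3 LPS treated mice were sequenced as strand-specific poly(A) libraries. The authors deposited raw counts per gene. The submitters' processing notes name cutadapt 1.9.1, HISAT2 2.2.1, HTSeq 0.6.1, DESeq2 1.34.0 and the genome build GRCm39. The annotation release, the strand setting and the treatment of reads shared between similar copies are not given in the sources used here, so genes with pseudogene copies, such as Glul, are uncertain to that extent. Here, edgeR 4.0.16 in R 4.3.3 was run on all genes with filterByExpr, TMM factors and the two-sided quasi-likelihood test, with Benjamini-Hochberg adjustment over the 13683 genes tested. The SE came from the F statistic. CPM used TMM-scaled library sizes. Exon lengths, with all annotated exons of a gene merged, came from GENCODE annotation of build GRCm38, matched by gene ID. A floor of 3 counts covers counting error only. As 18 alternatives, the fit was repeated in DESeq2 1.42.0, with scaling by total counts, RLE or upper-quartile factors, with abundant and mitochondrial genes kept out of library sizes, unfiltered or with a minimum of 10 counts per sample, at a stricter p or fold change threshold, with a replicate block, with LPS mice 2 and 3 summed, and without each mouse in turn. The code was tested on simulated data. Named were, by rule, the members, a set of related genes, Lbp, the 3 called genes with the smallest p per direction in each pathway and zonation list, and the leading gene of each marker list. A leading gene had the highest mean CPM over all mice and did not lead in every mouse for each list. Cyp2e1 leads the pericentral list. A few genes that this rule names are not reported here. Members and lists were chosen with earlier results of these data known.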

Additional observations from a re-analysis of the deposited data

Results flagged for a closer look

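In control mice, Nags was set apart by 1 sample. Control mouse 4 had 25.3 CPM and the other control mice 32.9, 33.5 and 33.3 CPM, so the gap below the other controls was 0.934 of the whole control range. The 9 genes were each examined in this way in the control mice, and a flag of this kind can arise by chance. The LPS group, with 3 mice, was not examined.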

How the results depend on the processing

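Otc, Asl, Slc25a15, Glul and Gls2 had the same direction and the same side of the threshold in all 18 alternatives. Over the 9 genes, 136 of 162 values were on the same side with the same sign, 8 lost the call (all Nags), 7 gained it (all Cps1) and 11 changed sign (Ass1 and Slc25a13, neither ever called). Ass1 had a log2 fold change of -0.14 with total counts, -0.0086 with upper-quartile factors, -0.022 with at least 10 counts in every sample, -0.074 with LPS mice 2 and 3 summed, and -0.083 to 0.16 when each mouse was left out. Slc25a13 had -0.079 with total counts and -0.036 to 0.15 with each mouse left out. Glud1 ranged from -0.21 to 0.019 and Slc38a3 from -0.14 to 0.096 when each mouse was left out. The cause of these changes was not tested.

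An adjusted p below 0.01 gave 1091 genes higher and 993 lower, and a log2 fold change beyond 1 gave 1068 and 1000, with 8 genes of the 4 pathway lists higher and 10 lower. These are stricter thresholds. Leaving out each mouse gave 1146 to 1868 genes lower. DESeq2 called 1947 higher and 1933 lower, and summing LPS mice 2 and 3 gave 1348 and 1195. For 36 other named genes, 621 of 647 values were unchanged in sign and side of the threshold, 24 lost the call and 2 changed sign.

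The labels do not say whether the replicate numbers pair the mice, and so few mice cannot settle it. Deviations from the group mean correlated across genes with r of 0.218, -0.0587 and 0.0882 for numbers 1 to 3. Of the 3 LPS mice, 1 was closest to the control of its number. With the replicate number as a block, 1647 genes were higher and 1587 lower, and of the 9 genes 3 and 2 were. Nags was then at 0.43 (adjusted p = 0.0750) and Cps1 at 0.76 (adjusted p = 0.0172). No other named gene changed its call.

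Small changes in Ass1 and Slc25a13 were not resolved with 4 and 3 mice. Low counts limit the precision for Nos2 and Rhbg.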

Other observations

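LPS mouse 1 stood between the control mice and LPS mice 2 and 3 for Asl, Slc25a15 and Nags, but had the highest macrophage and neutrophil marker sums, 844 and 224 CPM. Its ratio of Cps1 to Otc counts was 16.3 all the same, beside 16.4 and 16.2 in LPS mice 2 and 3, although its Cps1 and Otc levels were both the lowest of the LPS mice. Among control mice, Cps1 was lowest in mice 1 and 2, at 1276 and 1399 CPM, which also had the highest mitochondrially encoded shares, 23.7% and 14.6%. The relation was not tested.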
